A study of Homo sapiens with 18 samples.

Results

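The AP-1 transcription factor genes described here are JUN, JUNB, JUND, FOS, FOSB, FOSL1, FOSL2, ATF3, BATF3 and CREB5. They were taken as a list of gene names, drawn up with earlier results of these data known, and all 10 were found among the 27968 genes of every library. The list does not hold every zipper gene that can join AP-1: BATF, JDP2 and ATF2, for example, are counted apart as possible partners. RNA was sequenced from 2 established cell lines, A549 from a lung cancer and MDA-MB-231 from a breast cancer. A549 cells received a control siRNA or siRNA1, siRNA2 or siRNA3 against BLM, the Bloom syndrome helicase, and MDA-MB-231 cells received a control siRNA or siRNA1. All 6 groups were grown in DMEM with 10% FBS and had 3 libraries each. The labels name 2D culture at about 80% confluence and 3D culture on day 4 without assigning them to libraries. The siRNA called siRNA1 was taken to be the same in both lines from its shared name, and whether the 3 libraries of a group were separate cultures is not given in the sources used here. Tests therefore reflect library-to-library spread that could be technical. Each siRNA group is a knockdown by transfection with some BLM message left, and no other allele or agent is named for any group.

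AP-1 is a dimer of basic leucine zipper proteins. Jun proteins (JUN, JUNB, JUND) pair with each other or with Fos proteins (FOS, FOSB, FOSL1, FOSL2), while Fos proteins need a Jun partner to bind DNA. ATF3, BATF3 and CREB5 belong to related zipper families whose products also pair with Jun proteins. Dimers of Jun and Fos prefer the element TGACTCA, known as TRE, and dimers with ATF or CREB proteins prefer TGACGTCA, known as CRE. FOS, FOSB, JUN, JUNB and ATF3 are immediate early genes, switched on quickly by growth factors or stress, whereas FOSL1 and FOSL2 follow later and are known for their part in epithelial cancer cells that move and invade.

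The sequences just upstream of 4 member genes are shown because they hold an exact copy of one of these elements. JUN (chr1:58784048-58784297, minus strand) and ATF3 (the first of 2 listed starts, chr1:212565157-212565406, plus strand) share TGACATCA, a CRE variant long known from the JUN promoter. JUND (chr19:18281623-18281872, minus strand) has the full CRE, and CREB5 (the third of 3 listed starts, chr7:28685883-28686132, plus strand) has a TRE. Each line gives the 250 bases before the start of transcription, 5′ to 3′ on the gene's strand, from RefSeq on GRCh38.p14, with the matched element in capitals.
JUN: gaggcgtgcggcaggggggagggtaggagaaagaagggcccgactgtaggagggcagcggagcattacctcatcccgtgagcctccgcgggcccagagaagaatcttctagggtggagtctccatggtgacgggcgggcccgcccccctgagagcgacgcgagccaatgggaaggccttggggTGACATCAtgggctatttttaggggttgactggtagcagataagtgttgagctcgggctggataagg
ATF3: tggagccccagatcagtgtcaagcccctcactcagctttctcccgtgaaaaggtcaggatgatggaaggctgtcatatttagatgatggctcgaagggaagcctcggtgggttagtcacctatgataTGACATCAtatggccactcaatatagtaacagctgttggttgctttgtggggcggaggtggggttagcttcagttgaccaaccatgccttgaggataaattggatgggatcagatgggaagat
JUND: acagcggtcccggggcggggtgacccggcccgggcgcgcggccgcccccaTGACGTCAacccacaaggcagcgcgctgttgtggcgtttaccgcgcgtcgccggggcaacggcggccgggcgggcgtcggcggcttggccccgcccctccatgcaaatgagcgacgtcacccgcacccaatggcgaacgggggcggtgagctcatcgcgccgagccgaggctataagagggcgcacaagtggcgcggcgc
CREB5: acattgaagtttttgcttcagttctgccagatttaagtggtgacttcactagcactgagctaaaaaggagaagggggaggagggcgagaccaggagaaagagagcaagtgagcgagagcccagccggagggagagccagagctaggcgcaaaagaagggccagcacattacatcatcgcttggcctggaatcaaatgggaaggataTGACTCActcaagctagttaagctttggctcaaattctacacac

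The matched element lay 67 to 60 bases before the start in JUN, 123 to 116 in ATF3, 200 to 193 in JUND and 44 to 38 in CREB5. Each of the 3 words TGACGTCA, TGACATCA and TGACTCA was searched on both strands, where the second reads TGATGTCA and the third TGAGTCA when reversed, and none of them contains another. RefSeq windows were given for 8 of the 10 members, with 11 starts in all, and 4 of the 11 windows held a match. FOSL1 and BATF3 had no entry. Of all 35116 windows of the same length, 1.65% held TGACGTCA, 2.37% held TGACATCA and 4.2% held TGACTCA. A match describes letters only, and binding was not measured.

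BLM message fell in all 4 siRNA groups, to 1.51% of the control level with siRNA1, 13.6% with siRNA2 and 8.30% with siRNA3 in A549, and to 14.7% with siRNA1 in MDA-MB-231. Library totals ran from 30143047 to 40328208 expected counts. The third siRNA3 library of A549 stood apart: its deviation from its group mean had an SD of 0.248 (log2) over genes, against 0.102 to 0.169 in the other 17. Over genes, its deviation correlated with gene length at -0.629 (Spearman), against 0.533 and 0.447 for the first and second siRNA3 libraries. Among the members it was lower than its partners for FOSL2 (-0.54 on the log2 scale), CREB5 (-0.41) and FOSB (-0.22). It was higher for BATF3 (0.28), JUND (0.27), FOS (0.26), FOSL1 (0.12) and ATF3 (0.08), and about equal for JUN (-0.004) and JUNB (-0.005). Every AP-1 call with siRNA3 was the same without this library. Line markers followed the labels for AKR1B10 (2524 to 2888 in A549 control in TPM, a deposited abundance scaled to transcript length, and 0.64 to 0.83 in MDA-MB-231 control). ESR1 and PGR were at or under 0.28 TPM in the control libraries of both lines and so do not tell them apart. NKX2-1, a factor of lung tissue, did not mark the lung line here, with 0 to 1 counts per A549 control library and 185 to 251 in MDA-MB-231 control. EPCAM, an epithelial gene, was at 2.34 to 3.01 TPM in A549 control and 18.12 to 19.0 in MDA-MB-231 control. Of 11 line markers tested between the controls, 6 were higher and 4 lower in A549, beside 40.7% and 41.3% of all genes. CDH1, the epithelial cadherin, moved with the siRNAs in A549, at 17.7 TPM in control, 68.5 with siRNA1, 72.7 with siRNA2 and 1.49 with siRNA3. Summed TPM of 6 fibroblast markers ran from 1.69 to 1.79 in A549 control (DCN at 0), 10.96 to 12.6 with siRNA1, 14.7 to 16.04 with siRNA2, 5.42 to 9.27 with siRNA3, and 6.93 to 9.70 in MDA-MB-231. Summed TPM of 6 leukocyte markers was 24.7 to 42.1 in A549, with CD3E at 0 in all 4 groups, and 248 to 277 in MDA-MB-231. Their part in the AP-1 values was not tested. Fewer cells expressing a gene and less RNA per cell cannot be told apart in these bulk libraries.

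The lines started from different AP-1 levels. Compared per transcript length, in TPM, FOSL1 led in both controls, with 77.2 (60.02 to 97.0) in A549 and 534.7 (492.5 to 567.1) in MDA-MB-231. In A549 control the order then ran FOSL2 (30.05), JUNB (29.7), JUND (14.99), BATF3 (8.39), JUN (7.37), ATF3 (3.09), FOS (2.34), FOSB (0.167) and CREB5 (0.0633). The ranges of FOSL2 and JUNB, of BATF3 and JUN, and of ATF3 and FOS overlapped there. In MDA-MB-231 control FOSL1 was followed by FOSL2 (139), JUN (138), JUNB (70.4), JUND (55.2), BATF3 (7.82), ATF3 (6.38), CREB5 (5.46), FOS (3.57) and FOSB (0.827), with overlap between FOSL2 and JUN, BATF3 and ATF3, and ATF3 and CREB5. JUN, the founding Jun gene, was thus the lowest Jun gene in A549 and the highest in MDA-MB-231.

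Between the controls, 8 of 10 members were lower in A549 than in MDA-MB-231 and 0 were higher, where 82.0% of all 15816 tested genes differed (41.3% lower and 40.7% higher). The median difference of the members was -1.79 on the log2 scale, against -0.01 for all genes tested. FOSB and CREB5 reached the count filter in 1 of 3 A549 control libraries and in 3 of 3 of MDA-MB-231. They count among the 8 and in the median of the members, but were tested mainly through the line where they were higher. The median was not taken without them. The difference was -6.11 ± 0.18 for CREB5 (standard error; edgeR adjusted p 2.62e-12) and -3.96 ± 0.09 for JUN (edgeR adjusted p 1.31e-13). FOSL1 differed by -2.52 ± 0.13, FOSB by -2.05 ± 0.31, FOSL2 by -1.95 ± 0.10, JUND by -1.62 ± 0.11, JUNB by -0.99 ± 0.09 and ATF3 by -0.83 ± 0.16, the largest edgeR adjusted p of these being 0.000284. FOS (-0.35 ± 0.17, edgeR adjusted p 0.0699) and BATF3 (0.36 ± 0.18, edgeR adjusted p 0.0761) did not pass. FOS was called lower in A549 on log2 of TPM plus 1 (-0.45, limma adjusted p 0.00652) and without the third MDA-MB-231 control library (-0.48, edgeR adjusted p 0.0134). BATF3 was called higher without that library (0.56, edgeR adjusted p 0.00524) and with upper quartile factors (0.43, edgeR adjusted p 0.0332). The lines differ in tissue and in donor, which cannot be told apart here.

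**Figure D1:**
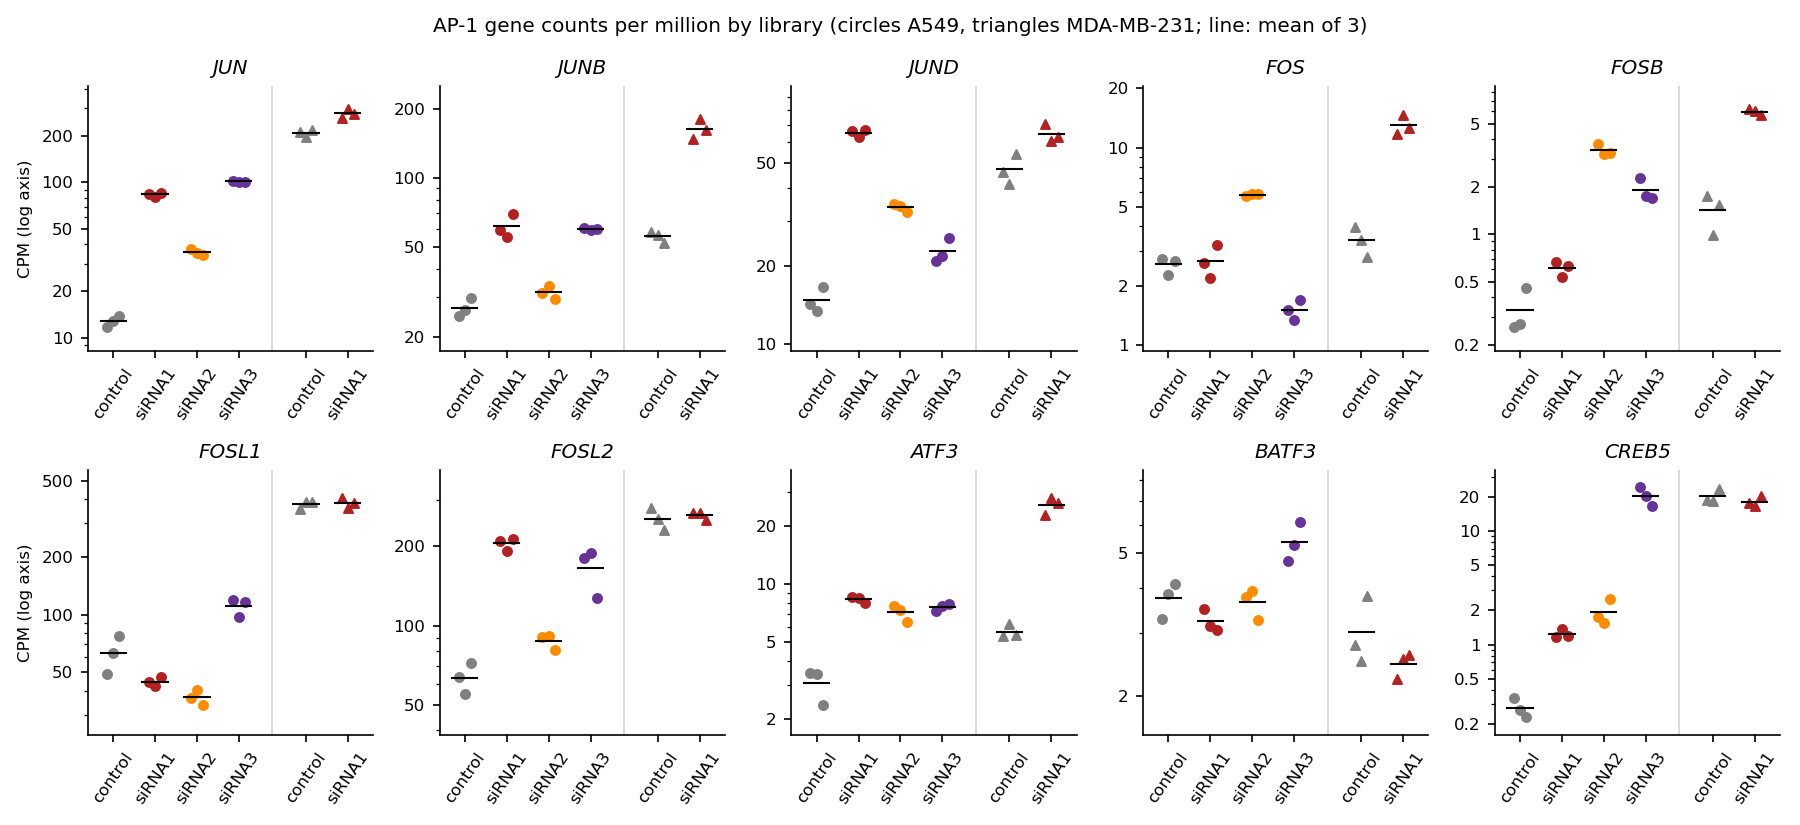
CPM (counts scaled to a common library total, log axis) of the 10 AP-1 genes in each library, with 1 panel per gene; circles are A549, triangles MDA-MB-231, and the short line is the mean of 3 libraries. JUN, JUND, FOSB and ATF3 lay above their line's control with every siRNA, and the height of a panel spans a different range for each gene.

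Against its own control, each siRNA raised most AP-1 genes, but not the same ones. In A549, siRNA1 and siRNA2 each raised 7 of 10 members and lowered 1, and siRNA3 raised 9 and lowered 1. In the breast line, siRNA1 raised 6 and lowered 0. These counts stand beside a wide response: of all genes tested, siRNA1, siRNA2 and siRNA3 changed 71.7%, 60.9% and 61.3% in A549 (39.0%, 32.5% and 30.9% higher, 32.8%, 28.4% and 30.4% lower) and siRNA1 changed 55.3% in MDA-MB-231 (27.5% higher, 27.8% lower). The members' median log2 change was 1.31, 1.18 and 1.23 in A549, against 0.09, 0.04 and 0.00 for all genes, and 0.44 against 0.01 in MDA-MB-231. Called changes reached 1 or more (log2) for 6 members with each A549 siRNA (30.1%, 19.1% and 20.0% of all genes) and for 4 in MDA-MB-231 (8.1%). JUN, JUND, FOSB and ATF3 rose in all 4 comparisons, of which the 3 in A549 share their control libraries. The share of all genes that rose in all 4 was not counted, so this number has no background beside it. FOSB and CREB5 reached the count filter in 1 of 3 A549 control libraries, so they were tested in A549 mainly through the groups where they were higher. Their rises there were thus partly fixed by the filter. Both are in the counts and medians above, which were not taken without them. CREB5 is among the 6 members past 1 with each A549 siRNA, and FOSB with siRNA2 and siRNA3. The other 8 members reached the filter in every library of every group.

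**Figure D2:**
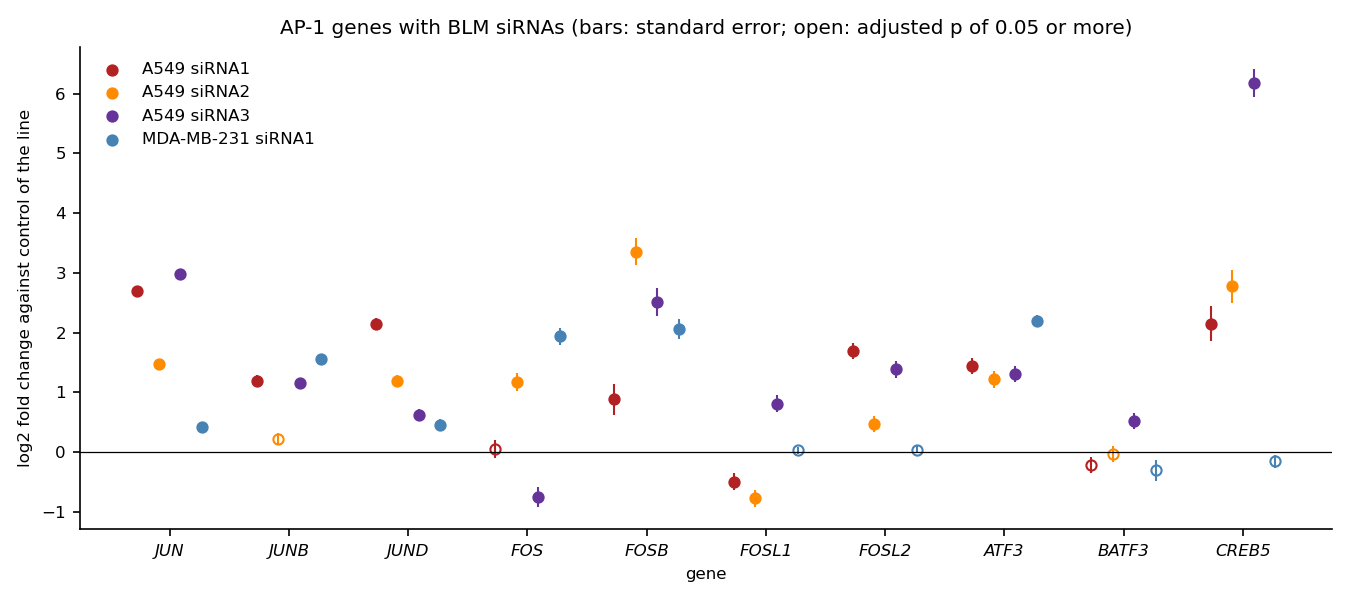
Log2 fold change of each AP-1 gene against the control of its line for the 4 siRNA comparisons; bars are standard errors and open circles have an edgeR adjusted p of 0.05 or more. CREB5 with siRNA3 reached 6.18, and FOS and FOSL1 lay on both sides of 0 within A549.

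JUN, whose product is the main Jun partner of Fos proteins, rose by a factor of 6.51, 2.77 and 7.89 over control with siRNA1, siRNA2 and siRNA3. CPM are counts scaled to a common library total within a line. The A549 control libraries had 11.8, 12.8 and 14.0 CPM of JUN, those with siRNA1 84.0, 81.0 and 86.1, those with siRNA2 37.6, 35.1 and 34.3, and those with siRNA3 103, 100 and 101. No siRNA library came within the control range, and the ranges of the 3 siRNAs were apart from each other too. On the log2 scale JUN rose by 2.70 ± 0.08, 1.47 ± 0.08 and 2.98 ± 0.08 (edgeR adjusted p 4.44e-12, 5.96e-09 and 5.21e-11). In MDA-MB-231 control it already stood at 211, 195 and 218 CPM, and siRNA1 took it to 260, 298 and 275, a rise of 0.42 ± 0.06 (edgeR adjusted p 0.00034). JUN was lower with siRNA2 than with siRNA1 by 1.23 ± 0.08 and than with siRNA3 by 1.51 ± 0.08. The smaller step between siRNA1 and siRNA3 (-0.28 ± 0.07, edgeR adjusted p 0.00433) lost its call with upper quartile factors (adjusted p 0.0686) and on log2 of TPM plus 1 (0.921).

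JUNB, a Jun protein that often restrains the action of JUN, was raised with siRNA1 and siRNA3 in A549 and with siRNA1 in MDA-MB-231. Its A549 control libraries had 24.9, 26.4 and 29.7 CPM, against 59.3, 55.3 and 69.6 with siRNA1, 31.4, 33.7 and 29.4 with siRNA2, and 60.5, 59.2 and 59.7 with siRNA3. The siRNA2 range overlapped that of control, and the other two lay above it. The log2 changes were 1.19 ± 0.10 for siRNA1 and 1.15 ± 0.10 for siRNA3 (edgeR adjusted p 1.18e-07 and 3.38e-07). With siRNA2 the change was 0.22 ± 0.10 (edgeR adjusted p 0.0623), a value that passed with upper quartile factors (adjusted p 0.0291) and on log2 of TPM plus 1 (0.0214). In MDA-MB-231 JUNB went from 58.1, 56.5 and 51.8 CPM to 149, 181 and 163, or 1.57 ± 0.08 (edgeR adjusted p 2.58e-07). JUNB overlaps HOOK2 on the opposite strand in a GENCODE annotation, which need not be the one behind the deposited counts. Whether the counting used strand is not given in the sources used here. HOOK2 itself changed by 0.88 ± 0.10, 0.60 ± 0.10 and 0.27 ± 0.10 in A549 (largest edgeR adjusted p 0.0283) and by 0.07 ± 0.07 in MDA-MB-231 (0.395). The part of HOOK2 reads in the JUNB values was not tested.

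JUND, the Jun gene known for steady expression in resting cells, rose in every comparison. The A549 control libraries held 14.4, 13.5 and 16.7 CPM of JUND, those with siRNA1 66.3, 62.9 and 67.1, those with siRNA2 34.8, 34.2 and 32.3, and those with siRNA3 20.9, 21.9 and 25.7. The 4 ranges were apart, with siRNA1 on top and siRNA3 nearest to control. These are log2 rises of 2.14 ± 0.10, 1.19 ± 0.10 and 0.62 ± 0.10 (largest edgeR adjusted p 9.58e-05). In MDA-MB-231 JUND rose from 46.2, 41.5 and 54.1 to 70.7, 60.7 and 63.2 CPM, or by 0.45 ± 0.10 (edgeR adjusted p 0.00288). JUN and JUND thus took different orders among the siRNAs. On the log2 scale, siRNA2 minus siRNA3 was -1.51 ± 0.08 for JUN and 0.57 ± 0.10 for JUND (edgeR adjusted p 2.47e-09 and 0.000194). With siRNA3, JUND was also 1.52 ± 0.10 below its siRNA1 level (edgeR adjusted p 1.32e-08). The small JUN step between siRNA1 and siRNA3 depended on the scaling.

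FOS, the founding Fos gene, was scarce in both lines and moved in opposite directions within A549. Its control libraries had 2.73, 2.28 and 2.68 CPM, against 2.61, 2.19 and 3.22 with siRNA1, 5.68, 5.82 and 5.86 with siRNA2, and 1.51, 1.34 and 1.70 with siRNA3. The siRNA1 range covered that of control, siRNA2 lay above both and siRNA3 below. FOS rose with siRNA2 by 1.17 ± 0.15 (edgeR adjusted p 1.25e-05) and fell with siRNA3 by 0.76 ± 0.17 on the log2 scale (edgeR adjusted p 0.00128), and the change with siRNA1 was 0.06 ± 0.15 (0.751). Between siRNA2 and siRNA3 the difference was 1.93 ± 0.16 (edgeR adjusted p 2.35e-07). In MDA-MB-231 siRNA1 raised FOS from 3.98, 3.43 and 2.81 to 11.8, 14.7 and 12.6 CPM, by 1.94 ± 0.14 (edgeR adjusted p 2.82e-06).

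FOSB, a Fos gene known for a long-lived splice form in neurons, rose everywhere from a low start. The A549 control libraries had 10, 10 and 18 counts, or 0.260, 0.268 and 0.460 CPM. With siRNA1 they had 0.671, 0.533 and 0.627 CPM, with siRNA2 3.76, 3.203 and 3.26, and with siRNA3 2.27, 1.74 and 1.70. All siRNA libraries were above the control range, and siRNA2 was above siRNA3. The log2 rises were 0.88 ± 0.27, 3.35 ± 0.23 and 2.52 ± 0.24 (edgeR adjusted p 0.00907, 4.44e-08 and 8.58e-07), of which the first lost its call on log2 of TPM plus 1 (0.0577). In MDA-MB-231 FOSB went from 1.75, 0.994 and 1.53 CPM to 6.22, 6.07 and 5.68, a rise of 2.06 ± 0.17 (edgeR adjusted p 7.79e-06).

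FOSL1, which encodes FRA1 and was the most abundant member per length in both controls, was lowered by siRNA1 and siRNA2 and raised by siRNA3. Control A549 libraries had 48.9, 63.3 and 77.7 CPM. Libraries with siRNA1 had 44.3, 42.7 and 47.2 CPM, those with siRNA2 36.8, 40.5 and 33.7, and those with siRNA3 119, 97.1 and 117. Every siRNA1 and siRNA2 library was below the lowest control library and every siRNA3 library above the highest. FOSL1 fell by 0.50 ± 0.14 and 0.77 ± 0.14 on the log2 scale and rose by 0.81 ± 0.14 (edgeR adjusted p 0.00585, 0.000342 and 0.000209). The siRNA1 call was lost on log2 of TPM plus 1 (-0.23, adjusted p 0.175), a scale on which the median of all genes was higher with siRNA1 by 0.25. In MDA-MB-231 FOSL1 had 357, 388 and 385 CPM in control and 406, 360 and 384 with siRNA1, with overlapping ranges and a difference of 0.03 ± 0.06 (edgeR adjusted p 0.725).

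FOSL2, which encodes FRA2, rose with all 3 siRNAs in A549. Its control libraries had 63.7, 54.8 and 71.8 CPM, against 211, 192 and 214 with siRNA1, 90.8, 90.9 and 81.0 with siRNA2, and 182, 188 and 127 with siRNA3. No siRNA library overlapped control, and the low siRNA3 value belongs to the library that stood apart. The log2 rises were 1.70 ± 0.14, 0.47 ± 0.14 and 1.38 ± 0.14 (edgeR adjusted p 1.16e-07, 0.00918 and 1.52e-06), the last of which was 1.54 ± 0.10 without that library. Without the second control library the siRNA2 rise was 0.37 (edgeR adjusted p 0.0509). MDA-MB-231 had 279, 254 and 232 CPM in control and 267, 268 and 253 with siRNA1, which overlapped, with a difference of 0.04 ± 0.07 (edgeR adjusted p 0.618).

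**Figure D3:**
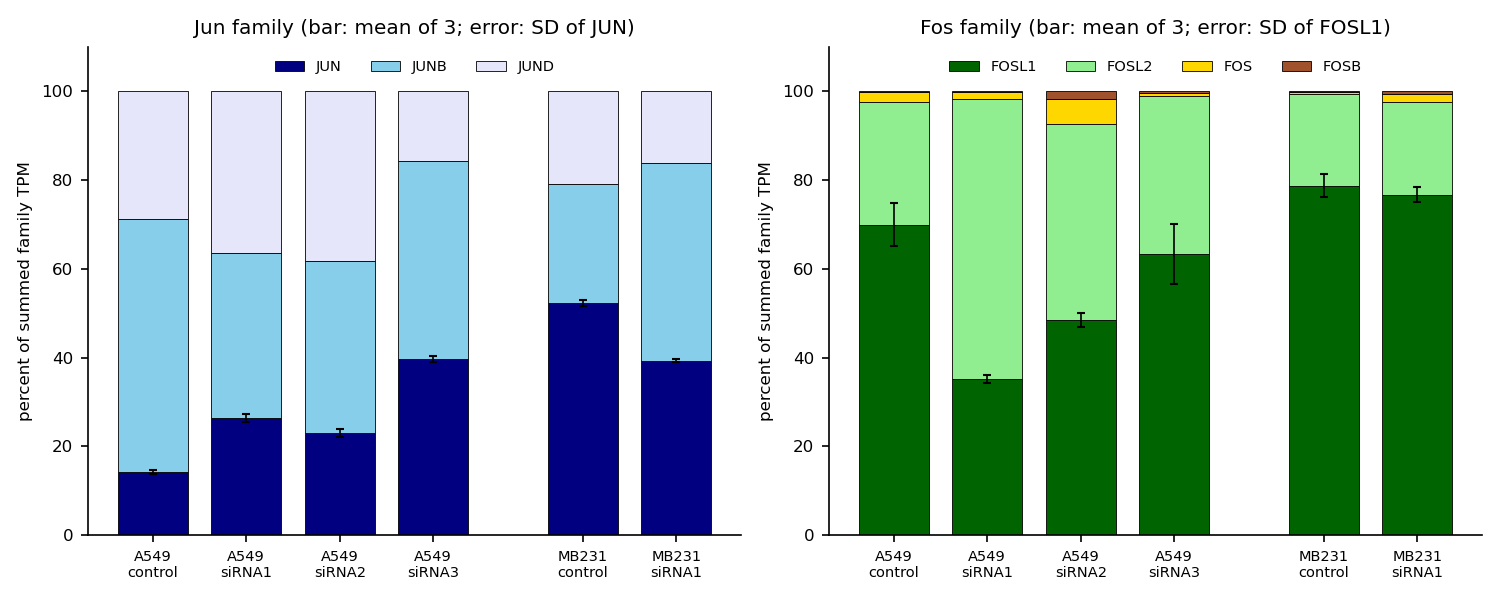
Share of the summed TPM of the Jun family (left) and the Fos family (right) held by each gene, as stacked bars of the mean of 3 libraries in the 6 groups (MB231 is MDA-MB-231); the error bar is the SD of JUN or FOSL1. JUN made up 14.2% of Jun message in A549 control and 39.6% with siRNA3, and FOSL2 passed FOSL1 with siRNA1 only.

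Added up per transcript length, Jun message was higher than control with every siRNA, and Fos message with siRNA1 and siRNA3 in A549. The summed TPM of JUN, JUNB and JUND averaged 52.0 ± 5.71 in the A549 control libraries (SD, n = 3), and 216.5 ± 9.37, 95.0 ± 2.02 and 146 ± 12.9 under siRNA1, siRNA2 and siRNA3. No siRNA library reached down to the highest control library at 58.6. The summed TPM of the 4 Fos genes was 110 ± 21.7 in control, 184 ± 4.85 with siRNA1, 100 ± 5.04 with siRNA2 and 219 ± 31.6 with siRNA3, where siRNA2 overlapped control. In MDA-MB-231 the Jun sum was 263 ± 19.3 in control and 492 ± 22.6 with siRNA1, with separate ranges, and the Fos sum 678 ± 27.3 and 729 ± 52.6, with overlapping ones. These sums are descriptions and were not tested.

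The make-up of each family is given by the share of each gene in these sums. In A549 control JUNB was 57.1% ± 0.890 of Jun message and JUN 14.2% ± 0.470 (SD, n = 3). JUN held 26.5% ± 0.896 with siRNA1, 23.0% ± 0.898 with siRNA2 and 39.6% ± 0.680 with siRNA3. In MDA-MB-231 JUN held 52.3% ± 0.641 in control and 39.3% ± 0.307 with siRNA1, and JUNB 26.8% ± 2.53 and 44.4% ± 1.88. FOSL1 held 70.0% ± 4.94 of Fos message in A549 control and 35.1% ± 0.973 with siRNA1, where FOSL2 held 63.1% ± 0.916, the reverse of the control order. The FOSL1 share was 48.5% ± 1.52 with siRNA2 and 63.4% ± 6.81 with siRNA3, and in MDA-MB-231 it was 78.8% ± 2.52 and 76.7% ± 1.71.

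ATF3, a stress-induced gene whose product binds CRE-like elements alone or with Jun proteins, rose with all 3 siRNAs. The A549 control libraries had 3.46, 3.40 and 2.35 CPM, those with siRNA1 8.57, 8.50 and 7.96, those with siRNA2 7.65, 7.37 and 6.37, and those with siRNA3 7.23, 7.68 and 7.90. All 9 siRNA libraries were above control, the siRNA1 range lay above the other two, and the siRNA3 range overlapped that of siRNA2. ATF3 rose by 1.44 ± 0.14, 1.22 ± 0.14 and 1.31 ± 0.14 (edgeR adjusted p 4.61e-07, 4.85e-06 and 2.49e-06). The differences between siRNAs were 0.23 ± 0.13 (siRNA1 minus siRNA2), 0.14 ± 0.13 (siRNA1 minus siRNA3) and -0.09 ± 0.13 (siRNA2 minus siRNA3), with edgeR adjusted p of 0.149, 0.365 and 0.568. On log2 of TPM plus 1, siRNA1 was called higher than siRNA2 (0.32, adjusted p 0.032) and than siRNA3 (0.33, adjusted p 0.0208), and edgeR on the 2 groups alone also called it higher than siRNA2 (adjusted p 0.0465). In MDA-MB-231 it went from 5.37, 6.17 and 5.44 to 23.0, 28.0 and 26.5 CPM, a rise of 2.19 ± 0.10 (edgeR adjusted p 1.5e-07).

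BATF3, known for its role in dendritic cell development, passed the test in 1 of the 4 comparisons with control. A549 control libraries had 3.28, 3.86 and 4.11 CPM, against 3.50, 3.15 and 3.05 with siRNA1, 3.78, 3.93 and 3.26 with siRNA2, and 4.76, 5.28 and 6.09 with siRNA3. The first 2 siRNA groups overlapped control and siRNA3 lay above it. BATF3 rose with siRNA3 by 0.52 ± 0.13 (edgeR adjusted p 0.00418), and differed by -0.21 ± 0.14 and -0.04 ± 0.14 with siRNA1 and siRNA2 (0.175 and 0.839). In MDA-MB-231 it had 2.78, 2.50 and 3.79 CPM in control and 2.23, 2.53 and 2.61 with siRNA1 (-0.31 ± 0.17, edgeR adjusted p 0.161).

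CREB5, a CREB family gene whose product can pair with JUN, held the largest change of any member. In A549 control it was nearly silent, with 13, 10 and 9 counts per library, or 0.338, 0.268 and 0.230 CPM. It stood at 1.17, 1.39 and 1.199 CPM with siRNA1, 1.75, 1.54 and 2.51 with siRNA2, and 24.5, 20.2 and 16.7 with siRNA3. The siRNA3 level was 73.4 times that of control and within reach of MDA-MB-231 control, at 18.5, 18.4 and 23.5 CPM, though each line was scaled on its own. The log2 rises in A549 were 2.15 ± 0.29, 2.78 ± 0.28 and 6.18 ± 0.23 (edgeR adjusted p 1.66e-05, 1.58e-06 and 2.78e-10). CREB5 was higher with siRNA3 than with siRNA1 by 4.03 ± 0.19 and than with siRNA2 by 3.40 ± 0.18. In MDA-MB-231 siRNA1 left it at 17.7, 16.6 and 20.1 CPM, overlapping control (-0.16 ± 0.11, edgeR adjusted p 0.253).

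Set against each other, the siRNAs differed at 7 to 9 members, and for siRNA1 against siRNA3 that share was near that of all genes. Between siRNA1 and siRNA2, 7 of 10 members differed (56.0% of all genes), 4 higher with siRNA1 (28.6%) and 3 lower (27.4%). Between siRNA1 and siRNA3, 7 differed (66.6% of all genes), 2 higher with siRNA1 (34.4%) and 5 lower (32.3%). Between siRNA2 and siRNA3, 9 differed (59.0% of all genes), 3 higher with siRNA2 (30.1%) and 6 lower (28.9%). For FOSL1, the siRNA1 and siRNA2 levels did not differ beyond the test (0.27 ± 0.14, edgeR adjusted p 0.117), and siRNA3 was higher than siRNA1 by 1.31 ± 0.14 and than siRNA2 by 1.58 ± 0.14. Averaged over the 3 siRNAs in A549, 7 members were higher and 0 lower (67.4% of all genes were called, 35.4% higher and 32.0% lower). FOS (0.16), FOSL1 (-0.15) and BATF3 (0.09) did not pass, and FOS and FOSL1 each had called changes of both signs within that mean.

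The same siRNA name gave different AP-1 changes in the 2 lines. Tested as an interaction, the siRNA1 effect differed for 9 of 10 members, where 57.8% of all genes differed (30.8% higher and 27.0% lower in A549). The effect was higher in A549 for 4 members: CREB5 by 2.35 ± 0.27, JUN by 2.33 ± 0.10, JUND by 1.73 ± 0.14 and FOSL2 by 1.70 ± 0.13 (largest edgeR adjusted p 2.66e-06). It was lower in A549 for 5, with differences of -1.84 ± 0.23 for FOS, -1.14 ± 0.36 for FOSB, -0.70 ± 0.18 for ATF3, -0.48 ± 0.16 for FOSL1 and -0.34 ± 0.13 for JUNB, with edgeR adjusted p of 4.62e-06, 0.0134, 0.00321, 0.0201 and 0.0439. Without the third A549 control library only FOS and ATF3 of these 5 kept the call, JUNB (adjusted p 0.119), FOSB (0.0927) and FOSL1 (0.0521) losing it. The JUNB call was also lost without the second A549 control library (0.0544), the first (0.088) or second (0.0858) siRNA1 library of A549, or the third MDA-MB-231 control library (0.0847), and with upper quartile factors (0.0509). On log2 of TPM plus 1 the FOSL1 and JUNB calls were lost (0.199 and 0.169). BATF3 did not differ beyond the test (0.14 ± 0.23, edgeR adjusted p 0.625). The BLM decrease itself was larger in A549, at -6.04 ± 0.10 against -2.76 ± 0.07 on the log2 scale.

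**Figure D4:**
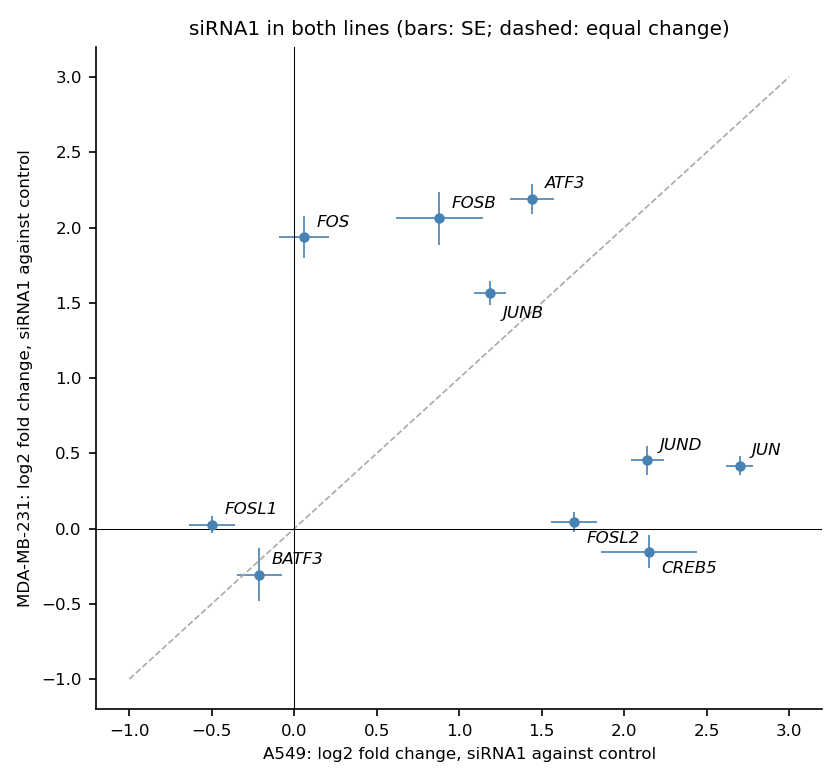
Log2 fold change of each AP-1 gene with siRNA1 against control in A549 (horizontal) and MDA-MB-231 (vertical), with standard errors as bars and equal change as the dashed line. JUN, JUND, FOSL2 and CREB5 lie below the line, where A549 changed more, and FOS, FOSB, ATF3 and JUNB above it.

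Kinases and other genes that act on AP-1 both rose and fell. Among 15 kinases of the JNK, ERK and p38 cascades, which phosphorylate Jun, Fos and their regulators, 4 rose and 5 fell with siRNA1 in A549, 4 and 5 with siRNA2, and 7 and 2 with siRNA3. In MDA-MB-231 1 rose and 5 fell of 14 tested. These counts stand beside calls for 71.7%, 60.9% and 61.3% of all genes in A549 and 55.3% in MDA-MB-231, a share that the kinases did not exceed. MAPK10, the JNK gene best known from neurons, rose by 2.97 ± 0.26, 2.33 ± 0.27 and 2.36 ± 0.27 with the 3 siRNAs from 10 to 30 counts per A549 control library. The ubiquitous JNK gene MAPK8 fell by 0.88 ± 0.07 on the log2 scale with siRNA1 and by 0.58 ± 0.07 with siRNA2, rose by 0.23 ± 0.07 with siRNA3, and did not pass in MDA-MB-231 (0.06 ± 0.07, edgeR adjusted p 0.484). MAP2K6, which activates p38, fell with siRNA3 (-2.03 ± 0.14) and in MDA-MB-231 (-1.48 ± 0.19), and was at -0.09 ± 0.13 and -0.01 ± 0.13 with siRNA1 and siRNA2 (edgeR adjusted p 0.531 and 0.944). The largest edgeR adjusted p among the called changes was 0.00947.

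Of 10 factors known to bind the FOS or JUN promoter or to act with those that do, 4 rose and 2 fell of 9 tested with siRNA1, 3 rose and 0 fell with siRNA2, 4 rose and 2 fell with siRNA3, and 6 rose and 1 fell of 10 in MDA-MB-231. The same comparisons called 71.7%, 60.9% and 61.3% of all genes in A549 and 55.3% in MDA-MB-231. MKL1, the actin-sensing coactivator of SRF, rose in all 4 comparisons, by 1.42 ± 0.11, 1.05 ± 0.10 and 0.95 ± 0.10 in A549 and by 0.42 ± 0.07 in the breast line (largest edgeR adjusted p 0.000677). SRF itself rose with siRNA1 (0.47 ± 0.08) and siRNA3 (0.45 ± 0.08) and did not pass with siRNA2 (-0.04 ± 0.08) or in MDA-MB-231 (0.16 ± 0.07). ELK3, an ETS partner of SRF, rose with siRNA2 (0.69 ± 0.09), siRNA3 (1.14 ± 0.09) and in MDA-MB-231 (0.35 ± 0.08) and did not pass with siRNA1 (-0.05 ± 0.09).

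Among 9 genes for turnover or coregulation of Jun and Fos, 3 rose and 4 fell with siRNA1, 4 and 4 with siRNA2, 3 and 4 with siRNA3, and 6 and 2 in MDA-MB-231, beside calls for 71.7%, 60.9% and 61.3% of all genes in A549 and 55.3% in MDA-MB-231. FBXW7, a ubiquitin ligase subunit that recognises phosphorylated JUN, rose by 1.57 ± 0.08, 1.12 ± 0.08 and 0.76 ± 0.08 in A549 and, in the breast line, by 0.40 ± 0.06. TRIB1, an adaptor of the ligase COP1, rose by 1.28 ± 0.08, 1.73 ± 0.08 and 1.17 ± 0.08 and by 0.83 ± 0.06 (largest edgeR adjusted p of both genes 0.000299). COPS5, a JUN coactivator also called JAB1, fell in A549, at -0.48 ± 0.09, -0.53 ± 0.09 and -0.90 ± 0.09, and rose in MDA-MB-231 by 0.29 ± 0.06 (largest edgeR adjusted p 0.00192).

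Other bZIP genes, listed as relatives or possible partners of Jun and Fos, numbered 13. With siRNA1 3 rose and 3 fell of 11 tested, with siRNA2 1 and 5, with siRNA3 6 and 3, and in MDA-MB-231 8 rose and 0 fell of 12 tested. Calls over all genes were made for 71.7%, 60.9% and 61.3% of all genes in A549 and 55.3% in MDA-MB-231. MAF went from 3 to 7 counts per A549 control library to 77 to 134 with siRNA1 and 45 to 53 with siRNA3, and did not pass with siRNA2 (0.33 ± 0.55, edgeR adjusted p 0.631). ATF7 rose in all 4 comparisons (0.71 ± 0.10, 0.94 ± 0.10, 0.63 ± 0.10 and 0.35 ± 0.06). The small MAF gene MAFF fell by 0.54 ± 0.11 and 1.00 ± 0.12 on the log2 scale with siRNA1 and siRNA2 and rose by 0.60 ± 0.11 with siRNA3 and 0.84 ± 0.09 in MDA-MB-231. Each called change of these genes had an edgeR adjusted p of 0.00086 or less.

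**Figure D5:**
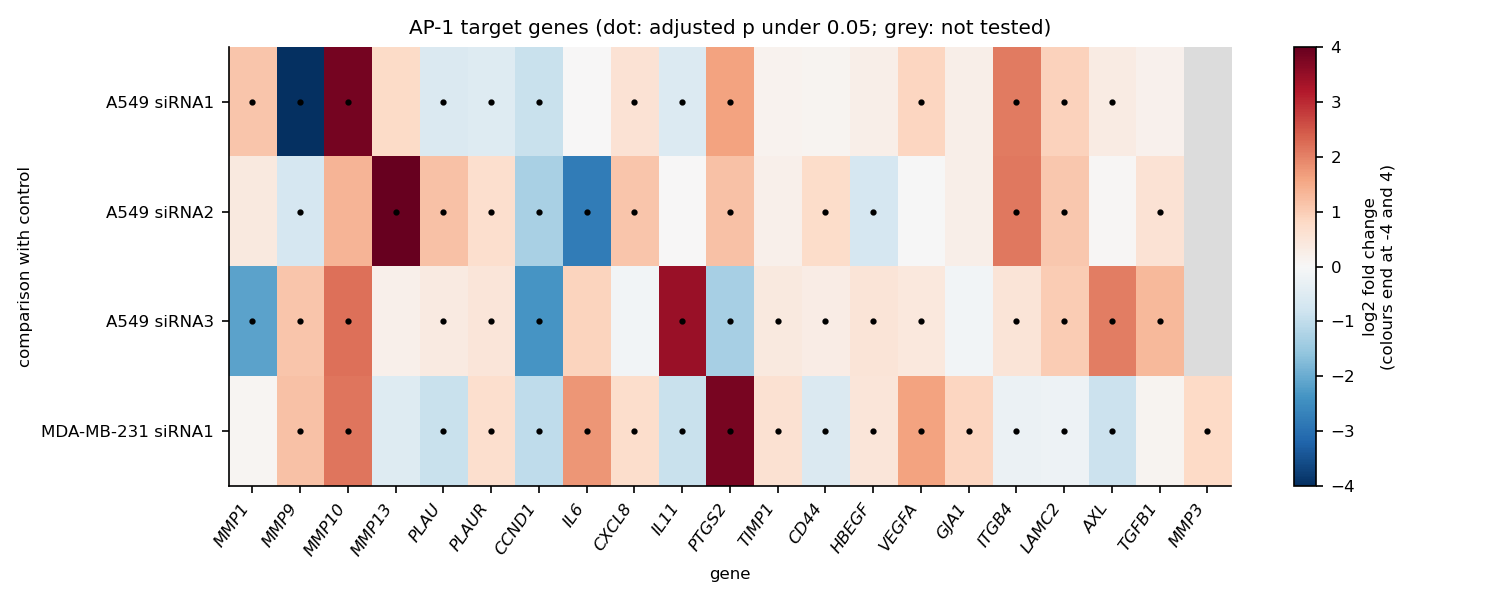
Log2 fold change (colour, ends at -4 and 4) of genes with known AP-1 sites in the 4 siRNA comparisons; a dot marks an edgeR adjusted p under 0.05 and grey a gene not tested. CCND1 was blue in all 4 rows, while PTGS2, PLAU and MMP9 changed colour between them.

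Genes long known to be regulated through AP-1 sites also moved both ways. Of 23 such genes 8 rose and 5 fell of 20 tested with siRNA1 (median log2 change 0.23), 9 and 4 with siRNA2 (0.48), 13 and 3 with siRNA3 (0.44), and 11 and 7 of 21 in MDA-MB-231 (0.48). The medians of all genes were 0.09, 0.04, 0.00 and 0.01, and the shares of all genes called were 71.7%, 60.9%, 61.3% and 55.3% (39.0%, 32.5%, 30.9% and 27.5% higher). CCND1, the G1 cyclin, fell in all 4, at -0.89 ± 0.08, -1.29 ± 0.08, -2.37 ± 0.08 and -1.02 ± 0.04 (largest edgeR adjusted p 2.85e-07). The integrin gene ITGB4 rose by 2.08 ± 0.17 and 2.11 ± 0.17 with siRNA1 and siRNA2 and by 0.51 ± 0.16 with siRNA3, and fell in MDA-MB-231 by 0.22 ± 0.05 on the log2 scale (largest edgeR adjusted p 0.0147). The receptor tyrosine kinase gene AXL rose by 0.33 ± 0.09 with siRNA1 and 2.06 ± 0.09 with siRNA3, and fell in MDA-MB-231, at -0.86 ± 0.05 (largest edgeR adjusted p 0.0036). With siRNA2 its log2 change was 0.04 ± 0.09 (edgeR adjusted p 0.703).

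Single targets separated the siRNAs and the lines. The gelatinase MMP9 had 81 to 125 counts per A549 control library, 4 to 7 with siRNA1 and 132 to 210 with siRNA3. It fell with siRNA2 by 0.67 ± 0.20 on the log2 scale (edgeR adjusted p 0.00956) and rose in MDA-MB-231 by 1.17 ± 0.09. IL11, a cytokine of the IL6 family, rose by 3.47 ± 0.11 with siRNA3 (edgeR adjusted p 1.25e-10), was lower with siRNA1 (-0.54 ± 0.11) and in MDA-MB-231 (-0.89 ± 0.10), and did not pass with siRNA2 (0.03 ± 0.10). In MDA-MB-231 the cytokine IL6 rose by 1.78 ± 0.06. In A549 it was near the floor, with 5 to 14 counts per control library. There it was lower with siRNA2, at 0 to 2 counts (-2.81 ± 0.72, edgeR adjusted p 0.00415), and did not pass with siRNA1 or siRNA3. VEGFA rose in MDA-MB-231 by 1.62 ± 0.05 and in A549 by 0.86 ± 0.07 with siRNA1 and 0.41 ± 0.07 with siRNA3, with 0.00 ± 0.07 under siRNA2 (edgeR adjusted p 0.974). Between the control groups 19 of 21 target genes tested were lower in A549 and 2 higher. Of all genes tested, 82.0% differed there (41.3% lower and 40.7% higher). The collagenase MMP1 had 4 to 11 counts per A549 control library against 99028 to 114983 in MDA-MB-231 control.

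For JUN, ATF3 and FOSL1 the genes with the most similar changes over the 4 comparisons were ranked by the root mean square difference of log2 fold change among 11543 genes. Next to JUN stood GGT8P (0.303), a pseudogene whose reads may be shared with related copies, GDPD5 (0.382) and SNAI2 (0.414), an EMT transcription factor whose changes were 2.67, 0.82, 3.097 and -0.08. Next to ATF3 stood AMIGO2 (0.334), DNAJB2 (0.351), a co-chaperone, and KDM6B (0.410), a histone demethylase. Next to FOSL1 stood 3 copies of the 18S ribosomal RNA gene, RNA18SN5, RNA18SN2 and RNA18SN4, with the same values in each (-0.64, -0.82, 0.74 and 0.09; difference 0.0872). Those copies cannot be told apart by reads, and ribosomal RNA was depleted before sequencing.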

How the data were processed

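RNA libraries were made with the Illumina TruSeq Stranded Total RNA and Ribo-Zero Gold kits, per the labels' protocols. The authors deposited expected counts (RSEM estimates of reads per gene) and TPM values (scaled to transcript length and a fixed total) for each library, per the file headers. The submitters' processing notes name RSEM and hg19. The use of strand, like the aligner and the annotation release, is not given in the sources used here. Between 10.2% and 11.8% of the deposited expected counts were not whole (any decimal other than 0), but those of the 10 members were whole in all 18 libraries. Deposited FPKM values were not used.

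Expected counts were rounded and tested with edgeR 4.0.16 (R 4.3.3): TMM scaling, filterByExpr (minimum count 10, minimum total 15), the quasi-likelihood F test and Benjamini-Hochberg adjustment over all genes tested, with a threshold of 0.05. The 12 A549 libraries shared 1 fit of group means, as did the 6 MDA-MB-231 libraries, the 12 libraries of the interaction and the 6 control libraries. The filter kept 15898 and 15280 genes in the 2 lines. Scripts were tested on simulated counts. Alternatives were other size factors and filters, DESeq2 1.42.0, limma-trend (limma 3.58.1) on deposited TPM, a replicate block, 2-group fits and leaving out each library.

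The members and gene lists were chosen with earlier results of these data known. Genes named were the members, BLM, for each list the 3 genes of lowest adjusted p in a comparison (with their values in the other comparisons), and 3 genes most like JUN, ATF3 and FOSL1. HOOK2, CDH1, NKX2-1, ESR1, PGR, PTGS2 and the cell type markers named were added to these, chosen after their values were seen or for the check of labels. One gene of the AP-1 target list is not reported here and was left out of that list's counts. The labels give no batch.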

Additional observations from a re-analysis of the deposited data

Results flagged for a closer look

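The change with siRNA1 differed between A549 and MDA-MB-231 by the interaction test for 9 of the 10 members. Without the third A549 control library the JUNB, FOSB and FOSL1 calls were lost. The log2 difference, A549 minus MDA-MB-231, was 2.35 for CREB5, 2.33 for JUN, 1.73 for JUND and 1.70 for FOSL2. It was -1.84 for FOS, -1.14 for FOSB, -0.70 for ATF3, -0.48 for FOSL1 and -0.34 for JUNB. Side by side, A549 and MDA-MB-231 had changes of 0.06 ± 0.15 and 1.94 ± 0.14 for FOS and of -0.50 ± 0.14 and 0.03 ± 0.06 for FOSL1. The BLM decrease and the starting AP-1 levels also differed between the lines, and their part in these differences was not tested.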

How the results depend on the processing

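Over the 4 comparisons of an siRNA with control, 617 of 630 values of single members under an alternative kept their direction and their side of the threshold, 6 lost the call, 7 gained one and 0 changed sign. On log2 of TPM plus 1, plus 0.1, and plus 1 with no filter, the members lower with siRNA1 in A549 numbered 0 (1 on counts), those higher with siRNA1 than with siRNA3 numbered 5 (2 on counts), and those with a lower siRNA1 effect in A549 than in MDA-MB-231 numbered 3 (5 on counts). With upper quartile factors, 1 member (BATF3, 0.43) was higher in A549 control than in MDA-MB-231 control, against 0. The cause was not tested.

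Leaving out 1 library at a time gave 7 members higher and 1 lower with siRNA1, 6 to 8 higher and 1 lower with siRNA2, 9 higher and 1 lower with siRNA3, and 6 higher and 0 lower in MDA-MB-231. For the mean of the siRNAs 7 were higher and 0 to 1 lower, the 1 being FOSL1 (-0.31) without the first A549 control library. Between siRNA1 and siRNA2 4 were higher and 2 to 3 lower, between siRNA1 and siRNA3 2 to 3 and 5, and between siRNA2 and siRNA3 3 and 6. For the interaction 4 were higher and 2 to 5 lower, with 2 without the third A549 control library. Between the controls 0 to 1 were higher, the 1 being BATF3 (0.56) without the third MDA-MB-231 control library. There 8 to 9 were lower, with FOS (-0.48) added when that same library was left out.

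Replicate numbers did not pair the libraries: of 21 same-numbered pairs, 3 had deviations from their group means that correlated above 0.1 (-0.485 to 0.262), and 5 correlated best with their own number. With the replicate number as a block, 4 in place of 5 members had a lower siRNA1 effect in A549, JUNB at -0.33 with edgeR adjusted p 0.0557, and no other count of members moved. FOSB and CREB5 in A549 control rest on 9 to 18 counts per library, which limits the precision of their folds.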
